A study of Mus musculus with 4 samples.

Results

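TNF receptor signalling was followed through 10 genes in Py8119 cells: 4 receptors (Tnfrsf1a, Tnfrsf1b, Tnfrsf12a and Ltbr), 3 TRAF adaptors (Traf1, Traf2 and Traf3), the cIAP ubiquitin ligases (Birc2 and Birc3) and the ubiquitin-editing enzyme A20 (Tnfaip3). They were taken by symbol from a table of 50600 genes, and all 10 were found once each. Py8119 is a mouse mammary tumour line of C57BL/6 origin, labelled mesenchymal-like and grown in IMDM with serum and no treatment. The control libraries, titled hygro, carry the genotype control, and the others carry Mtss1 overexpression, with 2 libraries each (control 1 and 2, overexpression 1 and 2). No source used here gives the vector, its promoter or whether the cells are a clone or a pool. The labels do not say whether libraries of 1 group stem from different cultures. P-values therefore reflect library-to-library spread alone, possibly just technical.

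Ligands of the TNF family bind receptors that have no enzymatic activity of their own. The receptors recruit TRAF adaptors and cIAPs, whose ubiquitin chains assemble the kinases that free NF-kB. TRAF3, together with TRAF2 and the cIAPs, also keeps the kinase NIK unstable and so holds back the slower, non-canonical NF-kB branch. A20 edits these ubiquitin chains and damps the signal, and its own gene is a classic NF-kB target. The series title names degradation of p65, the main activating NF-kB subunit; RNA levels do not measure that protein.

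Values were CPM, reads scaled to about 1000000 per library. Columns summed to 1009970 and 1016225 in control and to 982877 and 991293 with overexpression, so the scaling differed slightly between groups. Library depth recovered from the read steps was 20617788 and 22081639 reads in control and 15594209 and 16656638 with overexpression. Depth thus differed along with the group, and its part in the results was not tested. The 10 genes had 281 to 3158 reads in a library, so counting error alone was 1.78% to 5.97% of a value. In a cell population, fewer cells making an RNA and less RNA per cell cannot be told apart. Mtss1, the overexpressed gene, stood at 54.5 and 50.5 CPM in the controls and at 118 and 119 CPM in the overexpression libraries, a log2 fold change of 1.16 ± 0.05 (SE, limma adjusted p = 4.8e-15). Of 6 mesenchymal markers all passed the expression filter, with Vim between 4010.1 and 4302 CPM and not past the test. Zeb2 (-0.42), Fn1 (-0.30) and Cdh2 (-0.22) fell and Twist1 (0.51) and Zeb1 (0.17) rose on the log2 scale, all past the test. Of 5 epithelial markers Epcam was at 0 in all 4 libraries and Cdh1 reached at most 0.0920 CPM. The epithelial keratin genes that passed the filter both fell, Krt8 from 562 and 608 CPM to 367 and 368 CPM (-0.67) and Krt18 from 286 and 285 CPM to 234 and 235 CPM (-0.28). Among the immune markers, Cd3e, Itgam and Ncr1 were at 0 throughout and Ptprc reached at most 0.0980 CPM. The summed immune level was 21.2 to 22.3 CPM in control and 96.1 to 96.3 CPM with overexpression, nearly all from Cd68. The part of these markers in the results was not tested. The 5 endothelial markers summed to 0.368 to 0.490 CPM in control and 1.07 to 1.19 CPM with overexpression, and none passed the filter.

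With Mtss1 overexpression the 4 receptor genes were lower, Traf1, Traf2, Birc2 and Tnfaip3 were higher, Traf3 was lower and Birc3 did not pass the test. The largest differences were rises in Traf1 (1.49-fold), Tnfaip3 (1.45-fold) and Traf2 (1.41-fold) and a fall in Tnfrsf12a (to 0.757 of control). In all, 9 of the 10 genes passed at a limma adjusted p under 0.05, 4 upward and 5 downward. The background was high: 66.1% of the 12510 genes tested passed, 31.9% upward and 34.2% downward, so the number of calls does not set these genes apart. Likewise the groups did not overlap for any of the 10 genes, against 81.6% of all genes (39.7% higher and 41.9% lower with overexpression). Changes were of ordinary size, with a median absolute log2 fold change of 0.26 for the 10 genes and 0.28 for all genes tested. The median signed change was -0.09, beside -0.01 for all genes. All 10 genes read 17.7 CPM or more in every library, so none entered through 1 group alone.

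**Figure D1:**
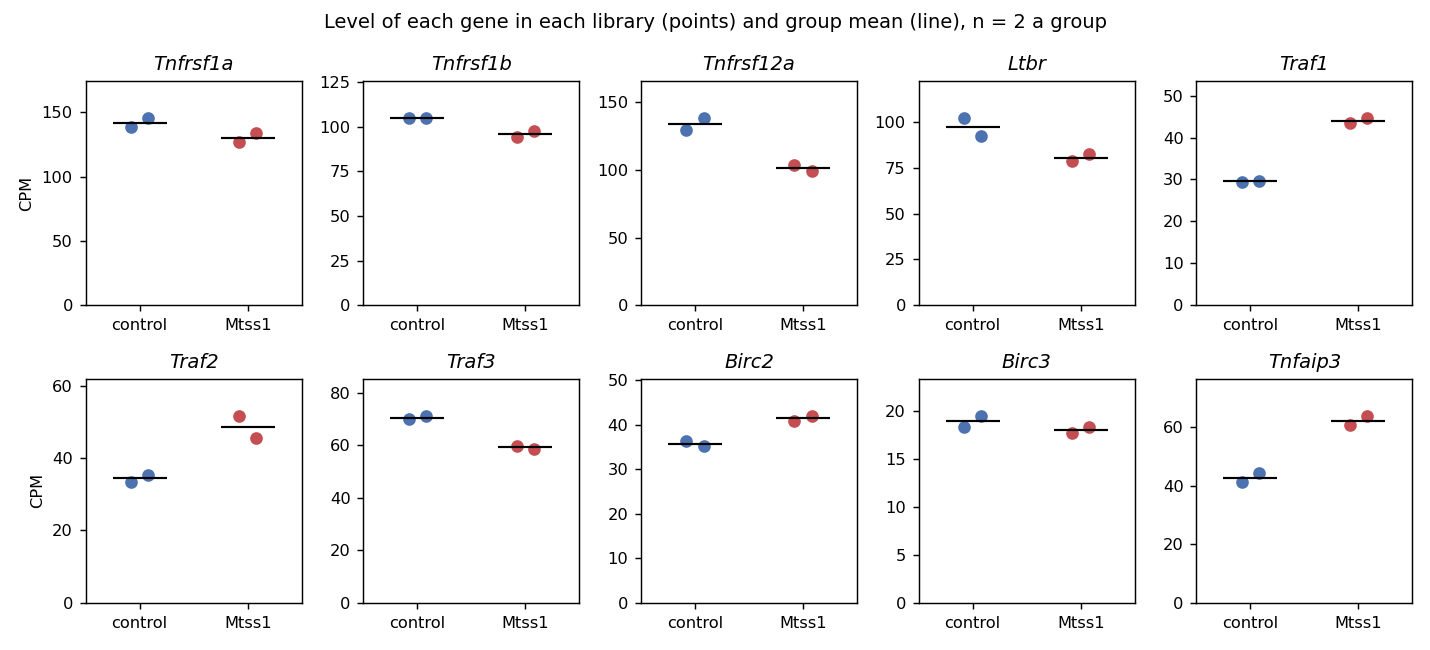
CPM of each of the 10 genes (vertical axes, each from 0) in the 2 control and 2 Mtss1 overexpression libraries; points are libraries and lines are group means. The overexpression points lie wholly above the control points for Traf1, Traf2, Birc2 and Tnfaip3 and wholly below them for the other genes, by little for Birc3.

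Among the receptors, Tnfrsf12a moved most. It encodes Fn14, the receptor of TWEAK, and measured 129 CPM in control 1 and 138 CPM in control 2, against 104 CPM in overexpression 1 and 98.9 CPM in overexpression 2. Both overexpression libraries lay well below both controls. Group means were 134 ± 6.32 and 101 ± 3.28 CPM (SD, n = 2). The log2 fold change was -0.40 ± 0.05 (SE, limma adjusted p = 8.6e-08). A larger absolute change was found for 36.3% of all tested genes.

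Ltbr encodes the lymphotoxin beta receptor, whose signalling includes the non-canonical branch. It stood at 102 and 92.5 CPM in the controls, against 78.8 and 82.4 CPM with overexpression. The control libraries differed from each other more than the overexpression libraries did, yet the groups stayed apart. The log2 fold change was -0.27 ± 0.05 (SE, limma adjusted p = 9.5e-05).

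The receptors of TNF itself changed least. Tnfrsf1a, the death-domain receptor found on most cells, stood at 138 and 145 CPM in the controls, against 127 and 134 CPM with overexpression, and Tnfrsf1b, which lacks a death domain and binds TRAF2 directly, read 105 and 105 CPM against 94.4 and 97.6 CPM. Both were lower in each overexpression library, with log2 fold changes of -0.12 ± 0.04 (SE, limma adjusted p = 0.018) and -0.12 ± 0.04 (SE, limma adjusted p = 0.019). These small falls lost their call in 6 of 13 alternative settings each, with adjusted p-values of up to 0.18 for Tnfrsf1a and 0.11 for Tnfrsf1b. For Tnfrsf1a the settings included leaving out control 2 (adjusted p = 0.17) or overexpression 1 (0.18), and for Tnfrsf1b leaving out control 1 (0.072), control 2 (0.072) or overexpression 1 (0.11). Scaling by library size alone gave log2 fold changes of -0.084 and -0.086 and removed both calls (limma adjusted p = 0.086 and 0.090).

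Pairs of related genes were also compared by their CPM ratio, which is not corrected for length and is read only between libraries. The ratio of Tnfrsf1b to Tnfrsf1a was 0.755 and 0.720 in the controls and 0.745 and 0.728 with overexpression. The log2 ratio differed by -0.0018 between groups, its values overlapped, and the exact permutation test gave a two-sided p of 1 (adjusted p = 1 over 3 ratios). With 2 libraries against 2 that test cannot give less than 0.333.

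Ligands for these receptors were scarce in the cells' own RNA. Tnf had 0 reads in both controls and 1 read in each overexpression library. Lta and Tnfsf14, further ligands of these receptors, had 0 reads in all libraries, and Ltb had 1 read in each. A count of 0 allows up to 3 reads, which is 0.138 to 0.189 CPM. Tnfsf12, the TWEAK gene, had 1 read in each control and 0 reads with overexpression; the readthrough gene Tnfsfm13, which shares its sequence, had 1.00 to 2.84 estimated reads. No change in these ligands was detectable at this depth.

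Traf1 showed the largest change of the 10. TRAF1 lacks the RING domain of its relatives, joins TRAF2 in heteromers and is itself NF-kB induced. The gene stood at 29.4 and 29.7 CPM in the controls, against 43.4 and 44.6 CPM with overexpression, so replicates lay close together and far from the other group. Group means were 29.6 ± 0.239 and 44.0 ± 0.812 CPM (SD, n = 2). The log2 fold change was 0.56 ± 0.07 (SE, limma adjusted p = 1.6e-07). A larger absolute change was found for 23.0% of tested genes.

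Traf2, the adaptor that brings cIAPs to the receptors, stood at 33.5 and 35.4 CPM in the controls, against 51.6 and 45.6 CPM with overexpression. The overexpression libraries were the least alike of any pair here, but both exceeded the controls. The log2 fold change was 0.48 ± 0.07 (SE, limma adjusted p = 2.1e-06), and 0.40 to 0.57 when single libraries were left out. The CPM ratio of Traf1 to Traf2 was 0.878 and 0.839 in the controls and 0.842 and 0.977 with overexpression, values that overlap (exact permutation p = 0.667, adjusted p = 1).

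Traf3 went the other way. It stood at 70.0 and 71.1 CPM in the controls, against 59.8 and 58.5 CPM with overexpression, with narrow spread in both groups. The log2 fold change was -0.25 ± 0.05 (SE, limma adjusted p = 2.1e-04). The CPM of Traf2 and Traf3 thus moved in opposite directions, both past the test. These directions held under all 13 alternative settings, some of which cannot alter a fold change.

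Birc2 and Birc3 encode cIAP1 and cIAP2, RING ubiquitin ligases that act on RIPK1 and NIK. Birc2 stood at 36.2 and 35.2 CPM in the controls, against 40.8 and 41.9 CPM with overexpression, a small rise seen in both libraries. Its log2 fold change was 0.21 ± 0.07 (SE, limma adjusted p = 0.0076), and the call was lost without control 2 (adjusted p = 0.053; 0.0018 to 0.053 over the refitted settings). Birc3, the more strongly NF-kB-induced of the pair, stood at 18.3 and 19.4 CPM in the controls, against 17.7 and 18.3 CPM with overexpression. The groups barely separated, and the difference was not past the test, with a log2 fold change of -0.06 ± 0.09 (SE, limma adjusted p = 0.55). Its 95% interval ran from -0.26 to 0.13, so a change of the size measured for Traf1, Traf2 or Tnfaip3 lay outside it.

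The ratio of the neighbouring paralogs was lower with overexpression. Birc3 CPM over Birc2 CPM was 0.506 and 0.552 in the controls and 0.434 and 0.436 with overexpression. The log2 ratio differed by -0.27 and the groups did not overlap, but the exact permutation p of 0.333 is the smallest that 2 libraries against 2 can give (adjusted p = 1.00 over 3 ratios). All 40 recovered read numbers of the 10 genes were whole within 0.005 read, whereas 79.6% to 80.5% of all nonzero values were.

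Tnfaip3, the A20 gene, rose. It stood at 41.2 and 44.3 CPM in the controls, against 60.6 and 63.7 CPM with overexpression, so each overexpression library exceeded each control by more than the replicates differed. Group means were 42.7 ± 2.17 and 62.2 ± 2.15 CPM (SD, n = 2). The log2 fold change was 0.53 ± 0.06 (SE, limma adjusted p = 5.9e-08). A larger absolute change was found for 24.9% of tested genes.

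**Figure D2:**
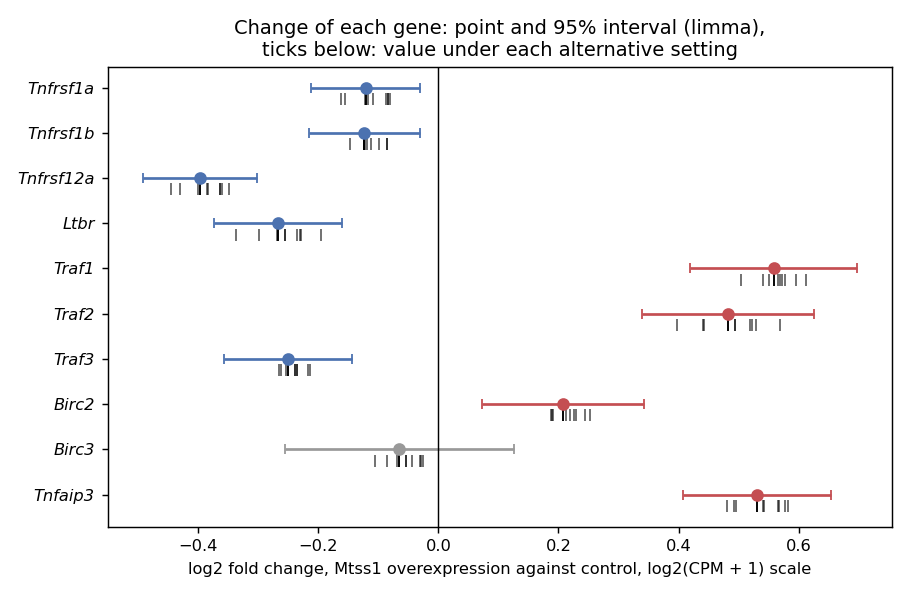
Log2 fold change of each gene, Mtss1 overexpression against control, on the log2(CPM + 1) scale (horizontal axis), with its limma 95% interval; red is higher, blue lower and grey not past the test, and the ticks below give the value under each alternative setting. Traf1, Traf2 and Tnfaip3 lie between 0.48 and 0.56, the receptors between -0.40 and -0.12, and no tick crosses 0.

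Since Tnfaip3, Traf1 and Birc3 are known NF-kB targets, the 250 bases before each RefSeq start (GRCm38.p6, the build also called mm10) were searched on both strands for the NF-kB consensus. RefSeq gave 12 such windows for the 10 genes. The consensus was found in 2 of them, those of Tnfaip3 and Traf3, and in 7.28% of 32544 promoter windows of that length. The last 130 bases before the start are shown for these genes, and for Traf1 and Traf2, which rose without a match; capitals mark matches to the consensus, and each sequence reads 5′ to 3′ on the gene's strand.
Tnfaip3: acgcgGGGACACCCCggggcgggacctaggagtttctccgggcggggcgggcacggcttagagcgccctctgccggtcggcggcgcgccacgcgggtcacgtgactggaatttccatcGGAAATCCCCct
Traf3: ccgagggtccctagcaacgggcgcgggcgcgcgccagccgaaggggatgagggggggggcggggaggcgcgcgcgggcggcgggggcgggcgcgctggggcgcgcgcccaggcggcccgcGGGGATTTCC
Traf1: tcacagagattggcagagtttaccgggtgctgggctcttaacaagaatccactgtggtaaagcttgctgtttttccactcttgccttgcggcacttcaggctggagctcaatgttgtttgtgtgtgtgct
Traf2: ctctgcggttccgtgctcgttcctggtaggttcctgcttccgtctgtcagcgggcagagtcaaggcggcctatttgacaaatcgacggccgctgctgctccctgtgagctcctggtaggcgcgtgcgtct

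These stretches lie at chr10:19015411-19015540 (minus strand), chr12:111166240-111166369 (plus), chr2:34961773-34961902 (minus) and chr2:25546941-25547070 (minus). In the GENCODE M21 annotation Tnfaip3 spans 19000910 to 19015657, so its stretch lies before the RefSeq start but inside that annotated gene. The match nearest the Tnfaip3 start begins at base -12 and the one of Traf3 at base -10, in opposite orientation. A match thus stood before the RefSeq start of a gene that rose and of a gene that fell. It describes letters in the window and not a bound site, and its absence from the other windows says nothing of sites elsewhere. The stretch before Traf1 holds 49.2% G and C, that of Tnfaip3 71.5% and that of Traf3 85.4%.

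Compared per kb of exonic length, the receptor RNAs stood at higher levels than those of the 6 intracellular genes. In control the order of CPM per kb was Tnfrsf12a (69.2), Tnfrsf1a (54.8), Ltbr (41.3) and Tnfrsf1b (27.4), then Traf3 (9.60), Birc2 (7.79), Traf2 (6.75), Tnfaip3 (5.91), Birc3 (3.77) and Traf1 (3.35), and the libraries of no neighbouring pair overlapped. By the mean of all 4 libraries, Tnfrsf12a stood at the 94.4th percentile of CPM per kb among tested genes, Traf1 at the 35.6th and Birc3 at the 32.6th. With overexpression the receptors kept their order, although Tnfrsf12a (52.4) and Tnfrsf1a (50.3) now overlapped. Below them Traf2 (9.53) and Birc2 (9.03) overlapped each other and were followed by Tnfaip3 (8.60), Traf3 (8.05), Traf1 (4.99) and Birc3 (3.59). Traf3 thus went from the highest of the 6 intracellular genes to the fourth, and Traf1 passed Birc3. The summed level of the 4 receptors was 191 and 194 CPM per kb in control and 161 and 164 with overexpression, and that of the 3 TRAFs averaged 19.7 against 22.6. Exonic length counts every annotated exon, so these levels are too low for genes that use short transcripts.

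**Figure D3:**
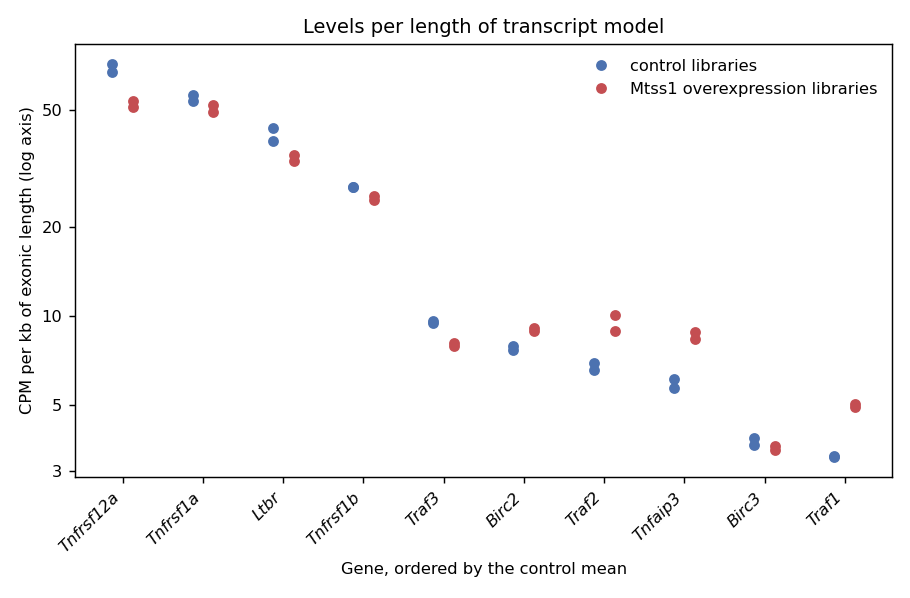
CPM per kb of exonic length of each gene (log axis), 1 point a library, with genes ordered by their control mean. The receptors lie above 24.7 in all libraries and the other genes at 10.1 or less, and Traf2, Tnfaip3 and Traf1 are shifted upward with Mtss1 overexpression.

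Other genes of the pathway were grouped by known role, and each group is given as counts with no test of the group. Of 24 further TNF receptor family genes 12 were tested, of which 6 were lower, 3 higher and 3 without a call, with a median log2 fold change of -0.18. Over all tested genes 34.2% were lower and 31.9% higher. Tnfrsf9, a co-stimulatory receptor gene of lymphocytes, fell from 30.9 and 27.4 CPM to 3.91 and 4.82 CPM (-2.49 ± 0.12 SE, limma adjusted p = 2.6e-14). Its ligand gene Tnfsf9 fell too, from 11.3 and 9.80 CPM to 6.11 and 6.31 CPM (-0.67 ± 0.13 SE, limma adjusted p = 7.8e-05). Tnfrsf18, the GITR gene, fell from 3.75 and 3.39 CPM to 1.34 and 0.893 CPM (-1.12), while Relt rose from 4.46 and 4.97 CPM to 10.1 and 9.76 CPM (0.94). The death receptor gene Tnfrsf21 rose from 0.147 and 0.184 CPM to 3.15 and 3.45 CPM (1.88), passing the filter only through the overexpression libraries. Tnfrsf26, named after its values were seen, fell from 1.67 and 2.39 CPM to 0.693 and 0.417 CPM (-0.96). It passed the filter only through the controls. When every library had to reach 1 CPM, calls in this list dropped from 9 to 6, with 4 genes lower and 2 higher. The decoy TRAIL receptor genes Tnfrsf22 (-0.76) and Tnfrsf23 (-0.79), named after their values were seen, fell as well; they are close paralogs, so reads may have been split between them.

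Of 18 TNF family ligand genes 4 were tested. Besides Tnfsf9, only Eda passed: the ectodysplasin gene rose from 0.196 and 0.322 CPM to 14.9 CPM in both overexpression libraries (3.66 ± 0.16 SE, limma adjusted p = 4.6e-15). It too passed the filter only through the overexpression group, and was not tested when either overexpression library was left out. Of its receptors, named after their values were seen, Edar reached at most 0.0630 CPM and Eda2r read 17.6 and 14.8 CPM against 15.7 and 15.5 CPM, with no call (limma adjusted p = 0.70).

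Among 10 tested TRAF relatives and TRAF-binding adaptors, 3 rose, 1 fell and 6 did not pass (median -0.03), where 31.9% of all tested genes rose and 34.2% fell. Tank, the TRAF family member-associated activator that binds TRAF2 and TRAF3, rose from 31.5 and 31.1 CPM to 45.8 and 50.8 CPM (0.61 ± 0.07 SE, limma adjusted p = 5.9e-08), and Traf7 rose by 0.21. Traf3ip2, which encodes the interleukin 17 receptor adaptor Act1, fell from 38.1 and 39.1 CPM to 18.6 and 20.4 CPM (-0.95 ± 0.08 SE, limma adjusted p = 4.0e-10). Traf4, Traf5 and Traf6, named after their values were seen, had log2 fold changes of -0.03, -0.17 and -0.13 and did not pass.

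Of 9 tested IAPs and IAP antagonists, 5 rose, 2 fell and 2 did not pass (median 0.11), where 31.9% of all tested genes rose and 34.2% fell. Naip5 (0.89) and Naip6 (0.84), inflammasome sensors with near-identical sequences whose reads may have been divided, rose most. A further rise was that of Naip2 (0.43), named after its values were seen. Xiap, the direct caspase inhibitor, fell from 63.0 and 64.7 CPM to 52.3 and 51.8 CPM (-0.29 ± 0.05 SE, limma adjusted p = 6.5e-05), and Birc6 fell by 0.22 on the log2 scale. Birc2 and Xiap thus had opposite signs, with no overlap of groups for either.

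In the receptor complex and cell death machinery 23 genes were tested. Falls numbered 12 and rises 5, with 6 genes not past the test and a median of -0.15, where 34.2% of all genes fell and 31.9% rose. With limma-voom 10 fell and 5 rose. Fadd, the adaptor of caspase 8, fell from 16.3 and 16.0 CPM to 9.43 and 9.62 CPM (-0.71 ± 0.11 SE, limma adjusted p = 4.9e-06). Ripk1, the kinase that carries the receptor's ubiquitin chains, fell from 76.0 and 78.7 CPM to 54.2 and 54.7 CPM (-0.50 ± 0.05 SE, limma adjusted p = 1.9e-08). Cflar (-0.49) and Casp8 (-0.31), an inhibitor and an initiator of receptor-driven apoptosis, were named after their values were seen and also fell. Rnf31, the catalytic subunit of the linear ubiquitin ligase, rose from 60.4 and 66.6 CPM to 101 and 89.7 CPM (0.58 ± 0.06 SE, limma adjusted p = 1.1e-08), and the deubiquitinase gene Cyld rose by 0.25. Tradd, the first adaptor of TNFR1, named likewise, had a log2 fold change of -0.07 and no call.

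Of 8 tested partners and relatives of A20, 4 fell, 4 did not pass and 0 rose with limma, with 0 upward also at an unadjusted p under 0.05 and in limma-voom (median -0.13; over all tested genes 34.2% fell and 31.9% rose). Tnip1, whose product ABIN1 links A20 to ubiquitin chains, fell from 115 and 110 CPM to 76.1 and 70.5 CPM (-0.61 ± 0.05 SE, limma adjusted p = 2.4e-10), and the ubiquitin ligase gene Itch fell by 0.17 on the log2 scale. The count of lower genes was 2 with library size scaling, limma-voom or no filter, and 1 without control 1. Of 4 non-canonical branch genes, Map3k14, which encodes NIK, stood at 38.0 and 38.4 CPM in the controls, against 45.3 and 44.8 CPM with overexpression (0.23 ± 0.06 SE, limma adjusted p = 0.0024), Relb rose by 0.20, and Chuk and Nfkb2 did not pass. Without overexpression 1 only 1 of the 4 passed.

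Genes known to be induced by TNF also respond to other signals. Among 18 tested, falls numbered 11 and rises 4, and 3 had no call (median -0.24), where 34.2% of all tested genes fell and 31.9% rose. The chemokine genes Ccl2 (-2.87) and Ccl20 (-2.52) fell most, and Gadd45b (1.21) and Il6 (0.90) rose most. Tnfaip2 (-0.82), the adhesion gene Vcam1 (-0.64) and the AP-1 gene Junb (-0.56), named after their values were seen, fell, while the mRNA-decay factor gene Zfp36 (0.37) rose.

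**Figure D4:**
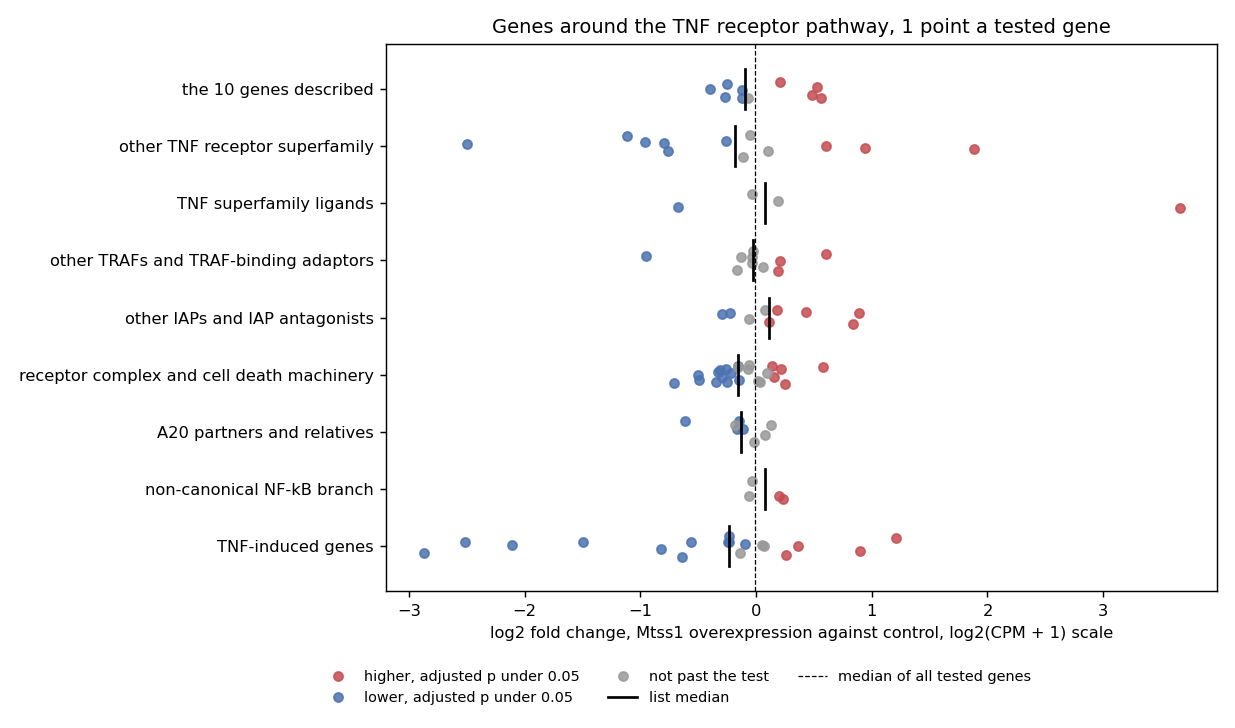
Log2 fold change on the log2(CPM + 1) scale (horizontal axis) of every tested gene in the 10-gene group and 8 related lists, 1 point a gene, coloured by call; black bars are list medians and the dashed line is the median of all tested genes. List medians lie between -0.24 and 0.11, and each list except the A20 partners and the non-canonical branch has calls in both directions.

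Several of these genes sit side by side in the genome. Birc2 (chromosome 9, 7818227 to 7837064) and Birc3 (7848699 to 7873186) lie 11.6 kb apart on the same strand. Of the 5 tested genes in and within 200 kb of this pair, Birc2 alone passed; Tmem123 (-0.10), the transcriptional coactivator gene Yap1 (-0.08) and Cfap300 (-0.05) did not. Tnfrsf1a (chromosome 6, 125349362 to 125362484) and Ltbr (125306571 to 125313885) lie 35.5 kb apart on opposite strands. Around Ltbr, 5 of 10 tested neighbours fell, among them Tapbpl (-0.74), Nop2 (-0.54) and Gapdh (-0.47), and 2 rose, beside 34.2% lower and 31.9% higher over all tested genes. Those 5 include Tnfrsf1a itself and Gm28809, which passed the filter only through the controls (3.33 and 3.87 CPM against 0.756 and 0.595 CPM). Tnfrsf12a (chromosome 17, 23675445 to 23677468) ends 218 bases from the end of Hcfc1r1, on the other strand, which rose from 56.7 to 115 CPM (1.01 ± 0.05 SE, limma adjusted p = 3.3e-14). The annotated exons of the pair do not overlap. Of 7 tested neighbours of Traf3 (chromosome 12, 111166370 to 111267153), 3 rose, 3 fell and 1 did not pass. The nearest, Cdc42bpb (0.27, 25823 bases away) and Rcor1 (0.20, 50469 bases away), rose, and Tnfaip2 (-0.82), 175 kb away, fell. Around Tnfaip3 (chromosome 10, 19000910 to 19015657) only Perp, which rose (1.17), was tested. Of 7 tested neighbours of Traf1, on chromosome 2, 3 rose and 1 fell, and of 16 of Traf2, on the same chromosome, 7 rose and 3 fell. Among the falls around Traf2, Mamdc4 passed the filter only through the controls (2.80 and 2.49 CPM against 0.756 and 0.952 CPM). Over all tested genes 31.9% rose and 34.2% fell, so called neighbours are common anywhere. All positions are of the mm10 build in GENCODE M21.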

How the data were processed

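Per the labels' protocols, 4 libraries of total RNA were read from both ends, 150 bases each. FastQC 0.11.2, STAR, RSEM and mm10 are named, without roles, in the submitters' processing notes. The authors deposited 1 table of CPM values with column sums of 982877 to 1016225; the unit was read from the values, and no source used here states the scaling. GENCODE M21 matched 50376 of 50600 identifiers, and for repeated symbols the row of highest mean was taken.

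The 12510 genes reaching 1 CPM in 2 or more libraries were tested with limma 3.58.1 (lmFit, eBayes with trend) in R 4.3.3 on log2(CPM + 1), so fold changes of low genes are understated. P-values were Benjamini-Hochberg adjusted over all of them. Each gene had 2 residual degrees of freedom, to which limma added 19.96 from the spread of all tested genes, 21.96 in total. The p-values and intervals thus rest largely on spread pooled over genes. Ratios used an exact two-sided permutation test in scipy 1.17.1. The median spread between libraries of a group was 1.75 to 2.02 times Poisson, and the fit treated them as replicates. That spread may be just technical, so it does not show that they stem from different cultures. On simulated data the procedure recovered 24 of 50 changes of 1.25-fold, 49 of 50 of 1.5-fold and 50 of 50 of 2-fold. Few genes were changed there and their spread was set alike, unlike in these data, so recovery here may differ.

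The members and lists were chosen with earlier results of these data known. Chuk stands on 2 lists. Named genes are the 10 members, Mtss1, the 2 largest rises and 2 largest falls past the test in each list, neighbours, ligands and markers; others are marked. Alternatives were 2 other scalings, 2 other filters, pseudocounts of 0.1 and 5, a replicate block, a threshold of 0.01 and leaving out each library. Another was limma-voom on recovered reads, scaled by library size alone. RefSeq supplied the promoter sequences.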

Additional observations from a re-analysis of the deposited data

How the results depend on the processing

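No member changed direction in 130 refits or thresholds (13 settings for each of 10 genes), and 117 kept their side of the threshold. The 2 other filters, the replicate block and the threshold of 0.01 leave each log2 fold change as it was. Only the remaining settings could have changed a direction. The 13 lost calls were those of Tnfrsf1a and Tnfrsf1b (6 each) and of Birc2 (1, without control 2). The number of members called was 9 and ranged from 6 to 9 when single libraries were left out; those lower numbered 3 to 5. Lower members numbered 3 with library size scaling, with limma-voom and at an adjusted p of 0.01, against 5. The limma-voom fit also scaled by library size alone, so it is not a separate check of the scaling. Without single libraries, calls over all genes numbered 7173 to 7288, against 8273; fewer libraries then enter the fit. The Tnfrsf1b to Tnfrsf1a log2 ratio difference ranged from -0.0365 to 0.0329 and that of Traf1 to Traf2 from -0.0290 to 0.18, so neither has a settled sign. That of Birc3 to Birc2 stayed between -0.33 and -0.21. The replicate numbers are not said to mark a shared culture or day, and deviations of same-numbered libraries correlated at -0.02. With a replicate block the fit called 9 members, 4 higher and 5 lower, and 8377 genes in all. Among the lists, ligand calls fell from 2 to 1 with at least 1 CPM in all 4 libraries and without either overexpression library, where Eda was not tested; calls among A20 partners fell from 4 to 2 at an adjusted p of 0.01. With 2 libraries a group, changes as small as those of Tnfrsf1a and Tnfrsf1b lost their call without single libraries.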
